A study of Homo sapiens with 8 samples.

Results

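Accessible chromatin inside protein-coding exons, away from any promoter, was described in HUDEP-2 cells, an established human erythroid precursor line that depends on the Kit receptor for survival. Of 43654 regions called accessible in at least 1 of 4 libraries, 526 (1.20%) had their summit in a coding sequence (CDS) and more than 1 kb from every annotated transcript start. To choose them, the 4 peak lists were merged wherever peaks shared 1 bp, and the summit was that of the peak with the highest percentile rank of fold enrichment within its own list. The 526 regions fell in 507 genes: 490 genes held 1 region, 15 held 2, and CRYBG1 and SPTBN4 held 3 each. Another 1542 regions with a summit in a CDS lay within 1 kb of a start and were set aside as promoter regions.

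Chromatin accessibility was measured by ATAC-seq, in which the transposase Tn5 cuts open DNA and tags the ends for sequencing, so that fragments pile up where chromatin is open. All cells used here carried a control guide RNA (sgControl) delivered by a lentivirus and were sorted by its GFP marker. They were grown without serum and growth factors for 5 h, and then given stem cell factor (SCF, the Kit ligand, 50 ng/mL) or phosphate-buffered saline (PBS) for 1 h. There were 2 sgControl libraries per treatment, made from 50000 cells each, and the samples with a guide against EGR1 were not analysed here. The line is immortalised and was expanded in SCF, erythropoietin, dexamethasone and doxycycline before deprivation, so the PBS group is a deprived state of SCF-grown cells. The guide against EGR1 was used with KRAB-dCas9, a silencing fusion, and sgControl was its control in that experiment.

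Exons are usually discussed as protein-coding sequence, but their DNA is also wrapped in nucleosomes and can bind transcription factors. Some coding exons hold enhancers or binding sites of the architectural factor CTCF, and others lie in CpG islands. In erythroid cells GATA1 opens many distal elements, and Kit signalling activates AP-1 factors through the MAP kinase cascade.

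The 8 windows below carry the results that follow: the highest-ranked region (KLHL31), regions that ranked higher with SCF (CRYBG1, USP20 and DLL3 coding exon 4), regions that ranked lower (TEX22, SV2A and DLL3 coding exon 7) and the highest-ranked region called only with PBS (SLC38A11). Each is the plus strand of GRCh37 from 100 bp before to 100 bp after the summit. They are chr6:53516728-53516928 for KLHL31, chr6:106968726-106968926 for CRYBG1, chr9:132625397-132625597 for USP20, chr19:39993462-39993662 for DLL3 coding exon 4, chr14:105877618-105877818 for TEX22, chr1:149878236-149878436 for SV2A, chr19:39997728-39997928 for DLL3 coding exon 7 and chr2:165755064-165755264 for SLC38A11. KLHL31, SV2A and SLC38A11 are read on the minus strand and the others on the plus strand. Capitals mark matches, on either strand, to 7 short words that are described with the base composition.
KLHL31: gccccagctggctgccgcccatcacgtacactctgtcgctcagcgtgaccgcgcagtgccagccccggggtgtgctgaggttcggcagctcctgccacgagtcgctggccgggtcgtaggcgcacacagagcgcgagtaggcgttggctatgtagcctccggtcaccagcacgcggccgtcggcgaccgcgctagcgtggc
CRYBG1: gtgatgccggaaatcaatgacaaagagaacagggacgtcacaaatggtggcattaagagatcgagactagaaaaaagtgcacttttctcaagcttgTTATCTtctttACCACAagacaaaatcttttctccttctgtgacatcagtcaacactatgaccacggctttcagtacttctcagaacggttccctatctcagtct
USP20: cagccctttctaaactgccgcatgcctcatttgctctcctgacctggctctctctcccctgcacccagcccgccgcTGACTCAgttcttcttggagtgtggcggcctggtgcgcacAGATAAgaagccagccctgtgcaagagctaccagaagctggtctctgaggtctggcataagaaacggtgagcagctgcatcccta
DLL3 coding exon 4: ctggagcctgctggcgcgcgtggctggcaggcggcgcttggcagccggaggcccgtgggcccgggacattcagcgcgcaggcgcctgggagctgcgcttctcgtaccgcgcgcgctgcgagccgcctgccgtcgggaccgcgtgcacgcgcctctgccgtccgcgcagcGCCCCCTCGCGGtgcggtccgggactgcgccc
TEX22: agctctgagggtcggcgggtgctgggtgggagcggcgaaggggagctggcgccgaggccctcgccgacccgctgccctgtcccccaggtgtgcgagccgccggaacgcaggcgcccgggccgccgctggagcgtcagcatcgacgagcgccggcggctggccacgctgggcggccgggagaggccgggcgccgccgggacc
SV2A: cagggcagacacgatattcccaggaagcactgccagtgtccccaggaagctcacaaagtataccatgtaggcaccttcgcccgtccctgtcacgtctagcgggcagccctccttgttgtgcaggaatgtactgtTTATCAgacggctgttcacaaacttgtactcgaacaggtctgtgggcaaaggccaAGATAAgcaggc
DLL3 coding exon 7: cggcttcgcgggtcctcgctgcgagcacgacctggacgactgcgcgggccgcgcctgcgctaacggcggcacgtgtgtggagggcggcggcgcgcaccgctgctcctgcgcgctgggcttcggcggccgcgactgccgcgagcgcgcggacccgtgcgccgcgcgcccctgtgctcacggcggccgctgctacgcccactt
SLC38A11: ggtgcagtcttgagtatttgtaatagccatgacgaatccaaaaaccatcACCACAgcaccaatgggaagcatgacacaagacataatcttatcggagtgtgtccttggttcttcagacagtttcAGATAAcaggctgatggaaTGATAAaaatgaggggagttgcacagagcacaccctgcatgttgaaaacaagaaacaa

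The lists held between 29269 and 33616 peaks, and the median summit pileup per library lay between 20 and 26 fragments. Depth was estimated from the lowest recovered background of each list, divided by its smallest peak width. This put PBS replicate 2 at 1.42 times the depth of PBS replicate 1, and the SCF replicates at 0.883 and 0.843 times. Median pileups differed less, at 23 and 26 fragments in PBS replicates 1 and 2 and 23 and 20 in SCF replicates 1 and 2. Fragment counts below are not scaled for depth. No library stood apart in the share of coding-exon regions. Gene starts were also examined, by regions called in all 4 libraries within 1 kb of a start. They were found at 32 of 34 genes of the red cell membrane and cytoskeleton and 31 of 36 haemoglobin, haem and iron genes. The counts were 36 of 40 for haematopoietic transcription factors, 5 of 24 for lymphoid and myeloid markers and 4 of 13 for megakaryocyte markers. Liver, neural and epithelial markers gave 7 of 21. Lists not particular to red cells were also high: 83 of 87 chromatin regulators, 55 of 58 Kit signalling genes and 37 of 40 immediate early genes. An open start is therefore not a mark of erythroid identity by itself.

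Accessible coding regions were denser in last and single coding exons than in internal ones. Of the 526, 153 (29.1%, 95% Wilson interval 25.4 to 33.1) were in the last coding exon of their transcript. With canonical coding sequence only, the share was 27.2% of 497 regions. Last coding exons held 19.5% of the coding bases more than 1 kb from a start, counted in canonical transcripts. Internal exons held 308 regions (58.6%, against 71.3% of these bases). First coding exons held 26 (4.94%, interval 3.40 to 7.14, against 4.04%), so their interval takes in their share of bases. Genes with a single coding exon held 39 (7.41%, interval 5.47 to 9.98, against 5.23%). All 526 regions were counted per Mb of canonical coding bases. This came to 36.3 regions in last exons, 34.5 in single exons and 29.7 in first exons, against 19.96 in internal exons. The position along the CDS was weighted to the 3′ side: the first 10% of the coding sequence held 20 regions (3.80%, against 6.24% of bases) and the final 10% held 83 (15.8%, against 12.02%). Of the 153 regions in last exons 47.7% were called in all 4 libraries, and of the 308 in internal exons 32.1%. These shares are descriptions of positions on a shared genome, and the intervals cover counting error only.

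**Figure D1:**
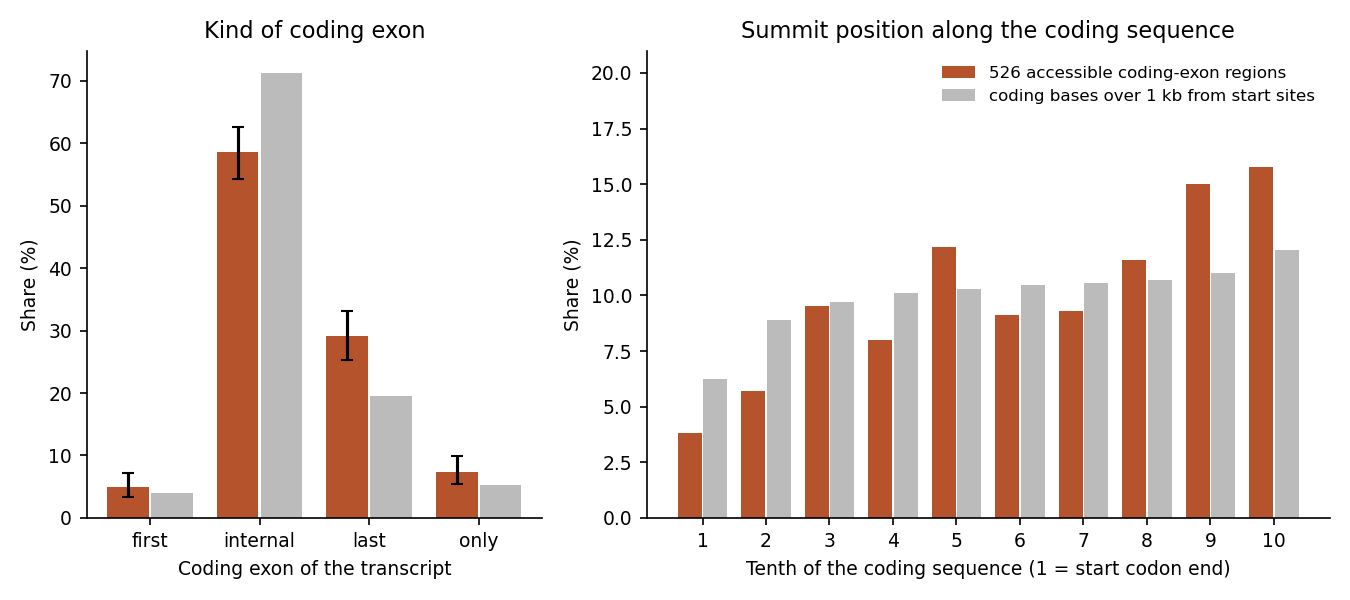
Share of the 526 accessible coding-exon regions (red, with 95% Wilson intervals in the left panel) and of all coding bases over 1 kb from start sites (grey), by kind of coding exon and by position along the coding sequence, in steps of 10% from the start codon. The last coding exon holds 29.1% of the regions (27.2% with canonical coding sequence only) and 19.5% of the bases, counted in canonical transcripts.

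The regions lay in exons of all sizes. The coding part of the exon had a median length of 210.5 bp (187 bp over eligible coding bases), and 246 regions (46.8%) lay in coding parts under 200 bp, which held 53.6% of the eligible coding bases. Coding parts longer than 1 kb held 89 regions (16.9%, against 18.8% of bases). The summit was a median of 62 bp from the nearer edge of the exon, compared with 53 bp for the coding windows placed at every 100 bp of eligible coding sequence, and the window of 100 bp on either side was wholly exonic in 209 regions (39.7%, against 32% of those windows). The regions themselves had a median width of 494.5 bp, of which a median of 46.0% was coding, and 87 were coding throughout. The nearest start of any transcript was a median of 3605.5 bp away, 162 regions lay within 2 kb of one, and the farthest, in ASXL3, a subunit partner of the Polycomb deubiquitinase, was 133448 bp away.

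All 526 regions lay in genes annotated as protein coding, and in 497 of them the exon belonged to the canonical transcript. A gene on the opposite strand overlapped 59, and in 31 another transcript had the same base outside its coding sequence. Coding exons were more densely occupied than other sequence outside promoters: they held 23.1 regions per Mb, compared with 18.2 in untranslated and non-coding exons, 10.4 in introns and 8.01 between genes. Counting only regions called in all 4 libraries, the densities were 8.56 per Mb in coding exons and 3.60 in introns. Chromosome 19 held the most, with 70 regions (13.3%) and 49.0 per Mb of eligible coding sequence, against 6.10% of all accessible regions. Chromosome 22 held 41.4 per Mb, chromosome 17 held 39.7, and the X chromosome held 8.60 from 8 regions.

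The accessible coding windows were GC-rich. Their median GC content within 100 bp of the summit was 61.2%, and 65.2% for the 195 regions called in all 4 libraries, compared with 47.8% in distal intronic regions and 65.7% in promoter regions. Coding windows in general were less so: of 216177 windows placed at every 100 bp of eligible coding sequence, the median was 47.8%. Of these windows 32% lay wholly within an exon, so most also took in bases outside it. The eligible coding bases themselves were 50.6% GC. Windows of at least 70% GC made up 2.80% of the coding windows and 23.2% of the accessible regions, or 20.1 accessible regions per 1000 such windows, compared with 0.915 per 1000 windows under 50% GC. Within libraries the median GC content of coding-exon regions exceeded that of distal intronic regions by 13.4 to 14.4 points (mean 14.1 ± 0.476, SD, n = 4, exact sign-flip permutation p = 0.125, the smallest that 4 libraries allow, two-sided).

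CpG-island-like windows, with GC over 50% and a CpG observed-to-expected ratio over 0.6, accounted for 198 regions (37.6%), against 8.46% of coding windows, 4.64% of distal intronic and 66.2% of promoter regions. Of these 198, 100 (50.5%) were called in all 4 libraries, compared with 95 of the other 328 (29.0%). The island-like regions were in last or single coding exons in 55.1% of cases and the others in 25.3%, and their coding parts were longer (median 506 against 164 bp). The 3′ position, long exon and base composition therefore went together, and their separate parts were not tested.

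Short sequence words were counted within 100 bp of the summit, on both strands and independently of each other, so that words may share bases. The CTCF word, the core of that factor's motif, was in 79 coding-exon regions (15.02%), in 7.66% of distal intronic regions and in 4.35% of coding windows. It was also in 12.8% of untranslated or non-coding exon regions and 10.3% of intergenic regions. The 95% Wilson intervals of the 2 exon classes overlapped (12.2 to 18.3 for coding, 11.1 to 14.7 for the others). The GATA words, AGATAA and its variant with an initial T in place of the A, were in 103 (19.6%), against 39.4% of distal intronic regions and 17.2% of coding windows. The AP-1 word TGANTCA was in 42 (7.98%), against 11.7% and 5.07%. The KLF word CCACNCCC was in 54 (10.3%, against 9.65% and 5.15%). The word TGTGGT, read by RUNX factors, was in 70 (13.3%, against 16.4% and 13.1%). The ETS word CCGGAAG was in 20 (3.80%, against 1.17% and 2.00%). The EGR word GCGTGGG was in 11 (2.09%, against 1.91% and 1.71%), and 234 regions held none of the 7. Over all accessible regions the shares were 8.43% for AP-1, 25.4% for GATA and 9.64% for CTCF.

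The shares of words differed by base composition. Among the 109 regions under 50% GC, 51.4% held a GATA word, against 26.9% of coding windows of the same composition, and 16.5% held the AP-1 word, against 6.68%. Between 50 and 60% GC the shares were 27.01% against 8.20% for GATA and 12.4% against 4.16% for AP-1. The CTCF word followed the other slope. It was in 20.9% of the regions with 60 to 70% GC, against 10.96% of coding windows. In those with 70% or more it was in 22.1%, against 15.3%. At 70% GC or more, EGR (1 region, 0.820% against 8.86%), KLF (10 regions, 8.20% against 15.4%) and RUNX (3 regions, 2.46% against 6.27%) fell below the coding windows. The ETS word lay above them there (9 regions, 7.38% against 3.78%). Between 60 and 70% GC the EGR word was also lower (3 regions, 1.90% against 4.81%), while KLF (17.1% against 12.9%) and RUNX (14.6% against 12.5%) were higher. The EGR word was in 6 regions between 50 and 60% GC (4.38% against 1.75%). Under 50% GC it was in 1 region (0.917% against 0.336%), which is too few to give a direction. Across libraries, coding-exon regions held the GATA word less often than distal intronic regions (by 20.1 ± 1.35 points, SD, n = 4) and the CTCF word more often (by 9.30 ± 1.04 points, both exact sign-flip permutation p = 0.125, also after adjustment over the 7 words). A match is a description of letters, not evidence of binding.

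**Figure D2:**
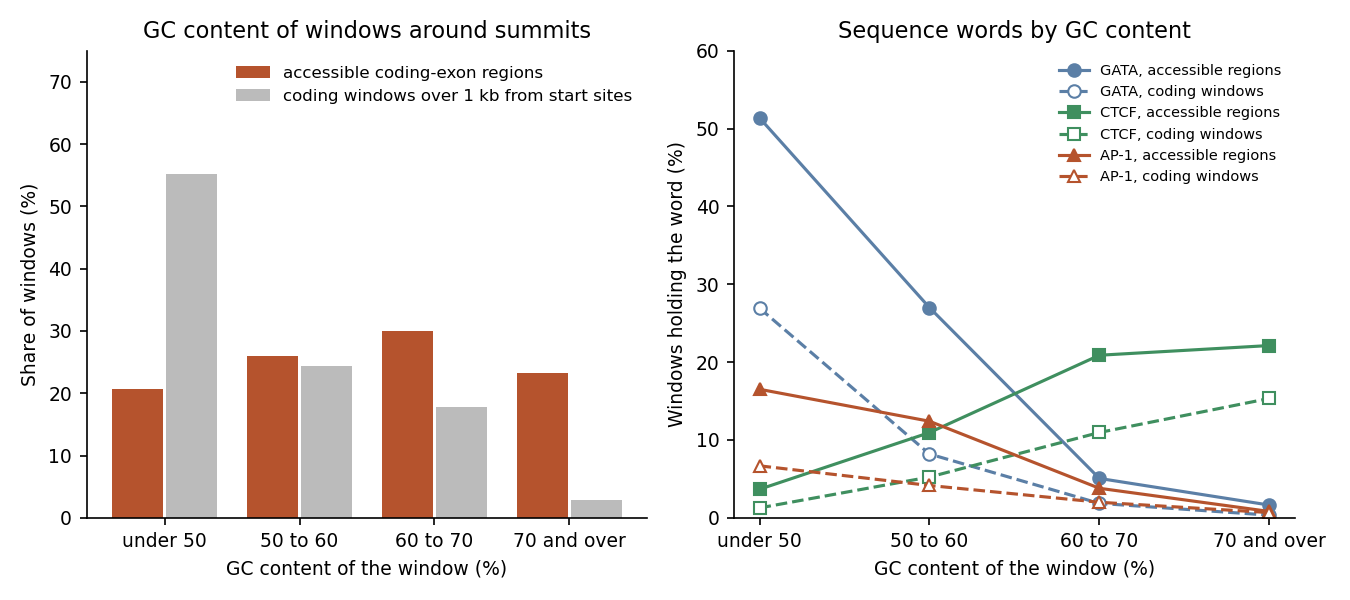
Left: share of accessible coding-exon regions (red) and of coding windows over 1 kb from start sites (grey) by GC content of the window around the summit. Right: percent of windows holding the GATA, CTCF and AP-1 words in accessible regions (solid lines) and coding windows (dashed lines); in the GC class under 50%, GATA words are in 51.4% of accessible regions and 26.9% of coding windows.

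Coding-exon regions were weak next to promoters and ranked near distal intronic regions. Strength is given as the percentile rank of a peak's fold enrichment in its own list, from 0 (weakest) to 100, because the libraries differed in depth. The median ranks were 36.4 and 33.6 in PBS replicates 1 and 2 and 33.2 and 36.8 in SCF replicates 1 and 2, compared with 67.6 to 69.2 for promoter regions (lower in 4 of 4 libraries, mean difference -33.3 ± 1.94, SD, n = 4, exact sign-flip permutation p = 0.125). Distal intronic regions had medians of 36.2 to 38, and the difference, coding minus intronic, was -2.15 ± 1.92 points (n = 4, exact sign-flip permutation p = 0.25). Ranked by the -log10 p of the peak, the difference turned to 3.62 points in favour of coding exons (exact sign-flip permutation p = 0.125). At the summit, coding-exon regions held 3.5 ± 1.29 more fragments than distal intronic ones (medians of 15 to 21 per library, exact sign-flip permutation p = 0.125).

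The local background by which the fold enrichment is divided differed between the classes. Relative to the lowest background in each library it had a median of 1.82 to 2.12 in coding-exon regions and 1.33 to 1.51 in distal intronic regions, and 3.72 to 4.16 in promoter regions. Coding-exon regions also lay closer to promoter regions (median 13657.5 bp, 15.2% within 5 kb) than distal intronic regions did (median 28510 bp, 7.73%). PRR36, chosen for mention after its values were seen, had a deep summit and a middling rank: its region in coding exon 6 had 248, 294, 205 and 155 fragments at the summit in the order PBS 1, PBS 2, SCF 1, SCF 2, and ranks of 43.2, 39.0, 34.8 and 29.6.

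**Figure D3:**
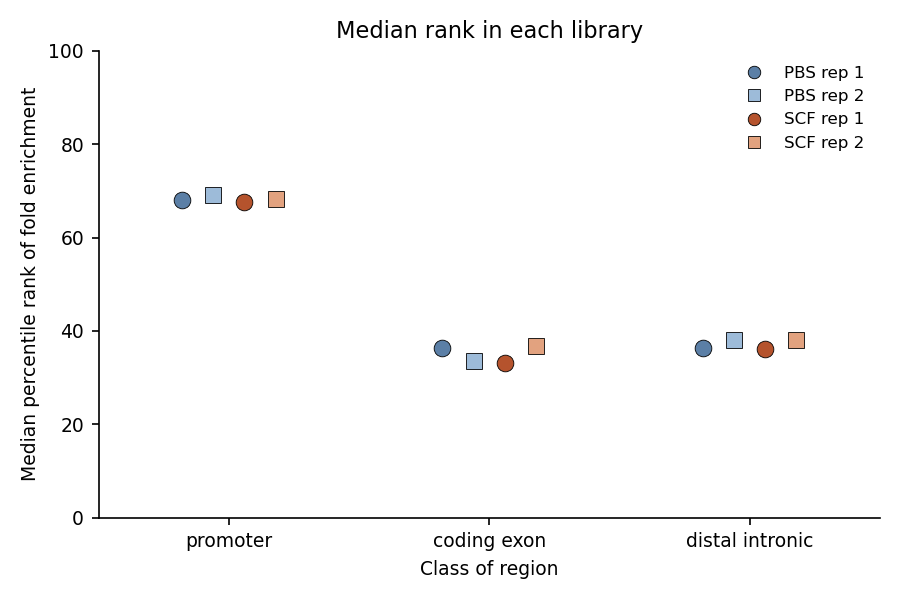
Median percentile rank of fold enrichment of promoter, coding-exon and distal intronic regions in each of the 4 libraries (circles replicate 1, squares replicate 2; blue PBS, orange SCF). Coding-exon medians lie between 33.2 and 36.8 and promoter medians between 67.6 and 69.2.

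Of the 526 regions, 195 (37.1%, 95% Wilson interval 33.1 to 41.3) were called in all 4 libraries, against 51.3% of all regions and 34.5% of distal intronic ones. A further 73 were called in 3 libraries, 71 in 2 and 187 (35.6%) in 1. Single calls made up 26.5% of all regions and 12.4% of promoter regions. Their share was 37.2% in distal intronic, 35.5% in untranslated or non-coding exon and 34.2% in intergenic regions, near that of coding exons. The regions called once came from every library: 32 and 64 from PBS replicates 1 and 2, and 38 and 53 from SCF replicates 1 and 2. Weak peaks thus made up much of the set, and a missing call at this depth does not show closed chromatin.

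The 10 strongest regions called in all 4 libraries had mean ranks from 85.9 to 97.3, while the median rank of promoter regions with a call in every library was 73.8 ± 1.83 with PBS and 72.5 ± 1.29 with SCF (SD, n = 2 each). KLHL31, a kelch-like protein of muscle, held the highest mean rank (97.3) in the second and last coding exon of its transcript, with 95 and 112 fragments in PBS and 116 and 87 in SCF. CAND2, a cullin-associated protein, followed at 97.1 in coding exon 5 of 15, with 113 and 135 fragments in PBS and 92 and 72 in SCF. The next were RASIP1, a Ras-interacting protein of blood vessels (94.97), GLTPD2, with a glycolipid transfer domain (90.02), the zinc finger gene ZNF771 (89.8), C17orf50 (88.7), CROCC, which encodes the ciliary rootlet protein rootletin (88.4), the interferon gene IFNL4 (86.8), the matrix protein gene MATN4 (86.7) and WRNIP1, a partner of the Werner helicase (85.9).

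Of these 10 regions, 7 were in the last coding exon, 8 were CpG-island-like and 9 exceeded 65% GC. None held the AP-1 or the GATA word, and RASIP1 and GLTPD2 held the CTCF word. No member of this group met a rule for a difference between SCF and PBS, but the rules could show little here. Ranks end at 100, so the PBS ranks of some members left no room for a gain of at least 10 points. These were KLHL31, CAND2, RASIP1, GLTPD2, C17orf50, CROCC and WRNIP1. Losses were few in the whole set, so their absence among 10 regions is not read as stability. At IFNL4, 48.9% of the 31-base stretches within 75 bp of the summit occurred elsewhere in the genome, and reads there are less certain. Over the whole set, 501 regions held no repeated 31-base stretch and 9 held such stretches in at least 50% of positions.

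SCF did not detectably move the set as a whole. Coding-exon regions made up 1.02% and 1.09% of the regions called in PBS replicates 1 and 2 and 1.06% and 1.07% in SCF replicates 1 and 2. The group means were 1.06% ± 0.0448 and 1.07% ± 0.00474 (SD, n = 2 each, difference 0.0118 points, exact permutation p = 1). The difference turned to -0.0457 points (exact permutation p = 0.333) when only peaks with -log10 q of at least 5 were kept, and to -0.0227 points without PBS replicate 1. For the 195 coding-exon regions with a call in every library, the median rank was 52.3 and 54.2 in PBS and 47.8 and 53.1 in SCF (53.3 ± 1.33 and 50.5 ± 3.73, difference -2.81 points, exact permutation p = 0.667). This difference was -0.53 points without PBS replicate 2, -6.99 points without SCF replicate 2 and -1.28 points with equal numbers of peaks. With SCF, 91 of the 195 had the higher mean rank and 104 the lower. With 2 libraries against 2 the smallest two-sided p is 0.333, so no such comparison can pass 0.05.

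The AP-1 word was in 8.497% and 7.99% of the coding-exon regions called in PBS replicates 1 and 2 and in 9.12% and 8.81% of those in SCF replicates 1 and 2. The difference was 0.721 points (8.24% ± 0.359 and 8.96% ± 0.222, n = 2 each, exact permutation p = 0.333), while in distal intronic regions the shares were 11.4% and 11.5% in PBS and 13.02% and 13.01% in SCF. It was 0.451 points without SCF replicate 2, 0.876 without PBS replicate 1 and 0.218 with -log10 q of at least 5. It turned to -0.218 points when the word was sought within 250 bp of the summit (exact permutation p = 0.667). The GATA word had shares of 23.8% ± 0.968 in PBS and 21.04% ± 1.19 in SCF libraries (difference -2.79 points, exact permutation p = 0.333, adjusted over the 7 words 0.583). By composition, CpG-island-like regions called in all 4 libraries had median ranks of 51.4 ± 0.293 in PBS and 48.4 ± 5.72 in SCF (exact permutation p = 1) and 55.6 ± 3.21 and 51.8 ± 2.46 for the others (exact permutation p = 0.667).

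Single regions were called by size: a rank gain is a region called in all 4 libraries whose lower SCF rank exceeds its higher PBS rank by at least 10 points, and a rank loss is the reverse. There were 8 gains among the 195 regions (4.10%), against 2.55% of all regions called in all 4 libraries, and 11 losses (5.64%), against 3.04%. Distal intronic regions had 4.82% and 3.96%. These calls carry no test, and the gains and losses are too few to set apart from those shares. Gains numbered 24 without PBS replicate 1, 17 without PBS replicate 2, 33 without SCF replicate 1 and 15 without SCF replicate 2. Losses numbered 32, 24, 26 and 34 in the same order, since a rule over 3 libraries is easier to meet. Shares over all regions are not given for these settings, so nothing is read from the counts about coding exons.

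The widest gain was in CRYBG1, a crystallin-domain protein. Its region in coding exon 4, a coding part of 2323 bp, had ranks of 26.7 and 38.9 in PBS and 71.0 and 68.4 in SCF, with 13 and 23 against 36 and 33 fragments at the summit. Both SCF libraries lay above both PBS libraries by 29.5 points at the nearest. The window printed above holds a GATA word and a RUNX word in its centre. Other regions of the gene differed in pattern. The region in coding exon 3 ranked 25.9 and 30.7 in PBS and 26.5 and 18.0 in SCF, and a second region in coding exon 4 was not called in PBS replicate 1 and ranked 24.7 in PBS replicate 2 and 13.9 and 26.02 in SCF. In its introns, which are not part of the set, CRYBG1 also held a rank loss, with ranks of 42.9 and 50.3 in PBS and 14.6 and 28.7 in SCF, and a region at 60.2 and 73.1 in PBS and 78.0 and 76.4 in SCF.

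USP20, a deubiquitinating enzyme, had the next gap among gains (16.5 points), with ranks of 71.2 and 60.5 in PBS and 90.2 and 87.7 in SCF. Its summit lay in coding exon 7, between an AP-1 word and a GATA word. MGARP, a mitochondrial protein, also held both words, and its last coding exon ranked 23 and 39.5 in PBS and 55.3 and 55.6 in SCF, on 9 to 17 fragments. NCAN, the brain proteoglycan neurocan, ranked 71.0 and 69.6 in PBS and 84.0 and 89.7 in SCF. The zinc finger gene GLI4 had low ranks throughout, 1.73 and 2.09 in PBS and 14.3 and 19.8 in SCF. FAM110D and SLBP, the histone mRNA stem-loop binding protein, completed the gains with gaps of 12 and 11.4 points.

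DLL3, an inhibitory Notch ligand, held a gain and a loss about 4 kb apart. In coding exon 4 the ranks were 26.8 and 22.0 in PBS and 41.8 and 42.5 in SCF, while in coding exon 7 they were 32.7 and 41.7 in PBS and 10.6 and 18.6 in SCF. The rules that chose these regions set the direction and the gap at each exon. Both windows were close to 79% GC, and exon 4 held a CTCF word. Raw fragment counts, not scaled for depth, were 28 and 37 in PBS and 38 and 33 in SCF at exon 4. At exon 7 they were 25 and 38 in PBS and 20 and 19 in SCF. The estimated depth of PBS replicate 2 was 1.42 times that of PBS replicate 1, against 0.883 and 0.843 times for the SCF replicates. These counts alone therefore do not compare the treatments. No other accessible region overlapped DLL3.

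**Figure D4:**
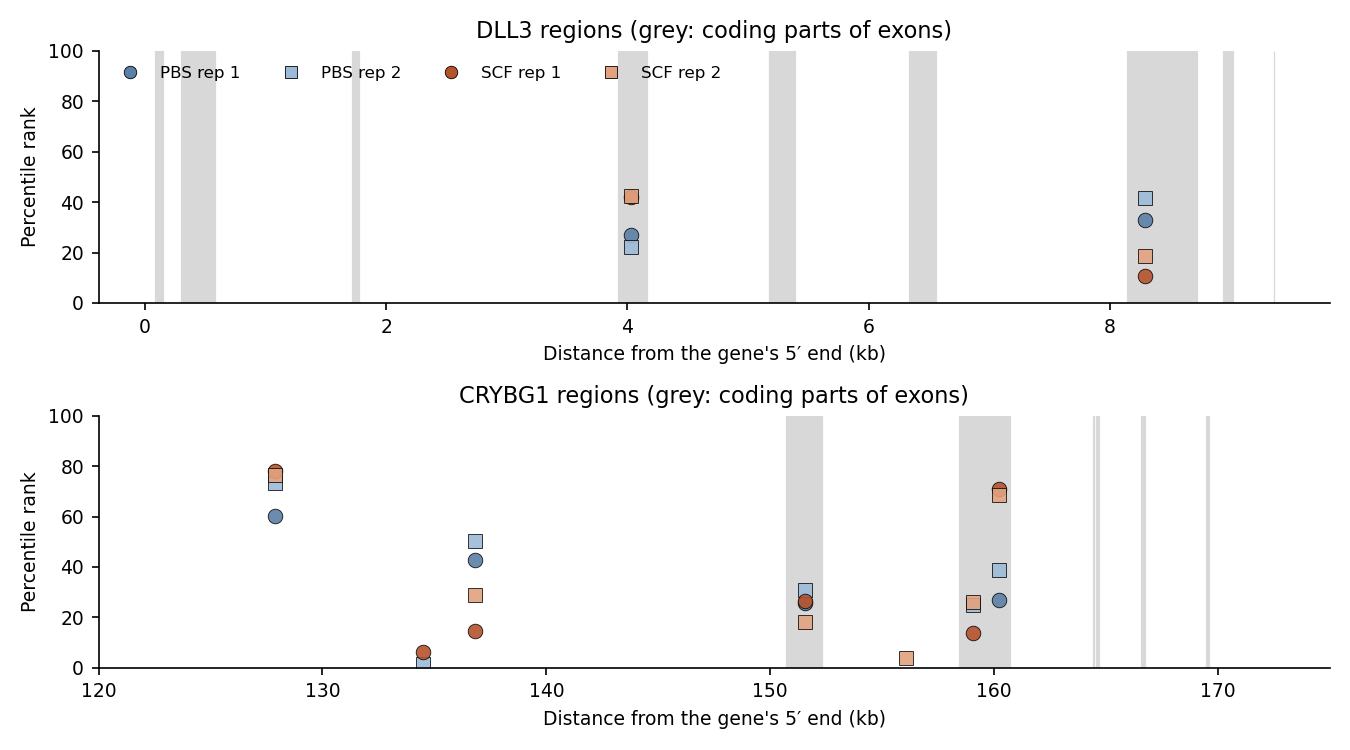
Percentile rank of each accessible region in DLL3 (whole gene) and in the 3′ part of CRYBG1, plotted at its summit against distance from the gene's 5′ end in kb, with coding parts of exons in grey (circles replicate 1, squares replicate 2; blue PBS, orange SCF). The ranks at DLL3 are 26.8 and 22.0 in PBS and 41.8 and 42.5 in SCF at exon 4, and 32.7 and 41.7 in PBS and 10.6 and 18.6 in SCF at exon 7; the CRYBG1 panel also holds its intronic regions.

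TEX22, a testis-expressed gene, had the widest loss (28.3 points), with ranks of 40.5 and 50.6 in PBS and 11.9 and 12.2 in SCF, and 25 and 35 against 16 and 14 fragments. SV2A, a synaptic vesicle glycoprotein, ranked 43.6 and 57.9 in PBS and 18.3 and 21.9 in SCF, and its window holds 2 GATA words. The autophagy gene ATG9B ranked 39.7 and 30.1 in PBS and 5.46 and 12.7 in SCF. In these 3 genes both SCF libraries were low and close to each other. PROB1, a gene of 1 coding exon, had a gap of 15.8 points and EVPL, the epidermal scaffold envoplakin, 14.4 points, but SCF replicates 1 and 2 of EVPL stood apart, at 6.07 and 30.4. The smaller losses included HIC1, a transcriptional repressor, PHOX2A, a homeodomain factor of autonomic neurons, BTAF1, which removes TATA-binding protein from DNA, and GALK2, whose coding part was 4 bp long in the transcript used.

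Calls present in both libraries of a treatment and neither of the other were rare. Of the 526, 9 were called in both SCF and neither PBS library (1.71%, against 1.65% of all regions), and 10 in both PBS and neither SCF library (1.90%, against 2.37%). CACNA1I, a T-type calcium channel, led the SCF-only regions with ranks of 32.7 and 52.4 and 13 and 17 fragments in coding exon 2. It was followed by CCDC92B (mean rank 33.9), R3HDM2 (31.3), ANK2, the ankyrin of excitable membranes (28.5), CPEB3, a regulator of mRNA translation (28.3) and GGT5, a gamma-glutamyl transferase (19.2). R3HDM2 and ANK2 each held 2 AP-1 words, and both had only 8 to 11 fragments.

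SLC38A11, an amino acid transporter, led the PBS-only regions, with ranks of 40.0 and 61.9 and 14 and 27 fragments in its last coding exon, next to 2 GATA words. The mitotic kinase NEK6 (mean rank 37.8) also held 2. The others were SPTBN4, the spectrin of axon initial segments (37.1), the EEF1AKMT4-ECE2 readthrough gene (31.4), the ubiquitin ligase RNF19A (23.2) and MBOAT7, an acyltransferase of phosphatidylinositol (14.2). SPTBN4 also had regions in coding exons 15 and 16 that were called in all 4 libraries, the first with ranks of 49.6 and 44.2 in PBS and 50.7 and 53.8 in SCF. Without PBS replicate 1 the SCF-only and PBS-only counts were 24 and 74, and without PBS replicate 2 they were 34 and 49. Without SCF replicate 1 they were 64 and 23, and without SCF replicate 2 they were 45 and 32. No share over all regions is given for these settings, and the counts show only how much the calls depend on each library.

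**Figure D5:**
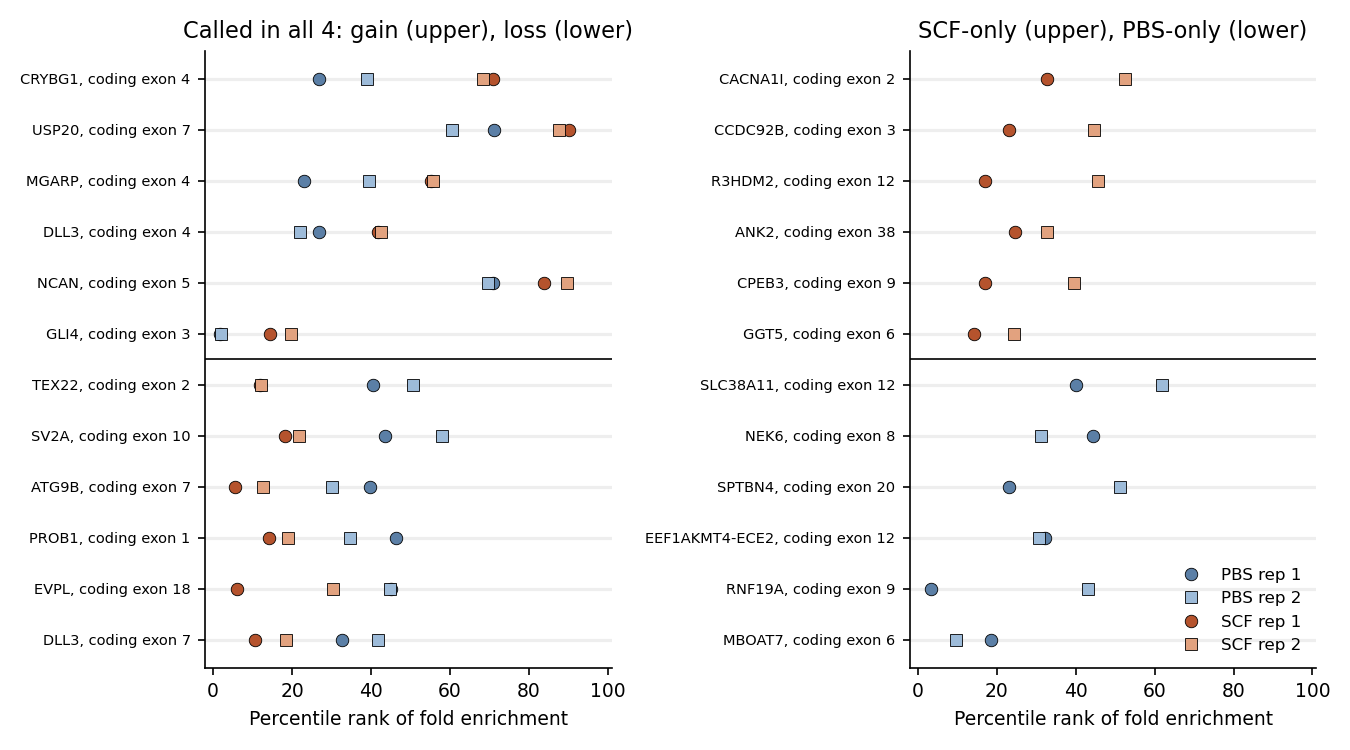
Percentile rank of fold enrichment in each library for the 6 coding-exon regions with the largest rank gain and the 6 with the largest loss (left), and for the 6 highest-ranked regions called only in the SCF and only in the PBS libraries (right), by gene and coding exon; a missing point is a missing call. SCF-only and PBS-only regions have mean ranks up to 42.6 and 50.9.

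Across the 17 regions that were gains or SCF-only, 4 held the AP-1 word (USP20, MGARP, R3HDM2 and ANK2) and 4 a GATA word. Across the 21 that were losses or PBS-only, 1 held the AP-1 word (BTAF1) and 9 a GATA word. The corresponding shares over all accessible regions with these calls were 20.1% and 6.25% for AP-1, and 32.6% and 27.4% for GATA. No test was made on so few regions.

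Over all genes with eligible coding sequence, 507 of 17714 held an accessible coding exon, and the named blood and signalling lists held between none and 4 regions. Among haematopoietic transcription factors 1 of 39 genes with eligible coding sequence held one: ZFPM1, the GATA1 cofactor FOG1, in its last coding exon, with ranks of 10.6 and 22.97 in PBS and 1.54 and 4.29 in SCF. Among red cell membrane and cytoskeleton genes 2 of 34 did. The tropomyosin gene TPM3 ranked 84.0 and 73.5 in PBS and 69.9 and 79.7 in SCF, although 66.7% of the 31-base stretches there are repeated in the genome. ANK1, the red cell ankyrin, was called only in the replicate 2 libraries, at ranks of 4.20 and 10.7. Kit signalling genes gave 2 of 58: DUSP4, a phosphatase of MAP kinases, was called in 3 libraries at 52.8 and 59.0 in PBS and 43.9 in SCF replicate 2, and STAT3, a transcription factor activated by cytokine receptors, in PBS replicate 2 only.

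Chromatin regulators held 4 regions in 85 genes. MED13 of the Mediator complex ranked 80.4 and 67.9 in PBS and 59.0 and 75.6 in SCF, and the histone methyltransferase NSD3 ranked 67.7 and 58.4 in PBS and 81.1 and 58.8 in SCF. The treatments overlapped at both. CHD7, a chromatin remodeller, was called in 1 library and ASXL3 in 2. None of 29 haemoglobin, haem and iron genes, 31 immediate early genes, 22 lymphoid and myeloid markers, 10 megakaryocyte markers or 19 liver, neural and epithelial markers held a coding-exon region. No p is given for these counts, and nothing is read from them about the lists.

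Gene families, grouped by symbol, are described by their counts. C2H2 zinc finger genes held 17 regions (3.23%, against 4.58% of eligible coding bases), solute carriers 12 (2.28% against 1.94%), and potassium, sodium and calcium channel genes (symbols starting KCN, SCN or CACN) 10 in 9 genes (1.90% against 1.02%). Protocadherin, histone and ribosomal protein genes held none, but they make up only 0.481%, 0.0108% and 0.115% of eligible coding bases. Nothing is read from these absences or from the small counts of other families. Olfactory receptors held 4 (0.760% against 0.532%), and 3 of them were called in all 4 libraries, as were 37.1% of the 526 regions. The highest, OR52A1 (mean rank 73.2, named after its values were seen), is a receptor gene beside the beta-globin cluster.

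At the 1 kb limit, SON and RASL10A were just inside, each 1002 bp from a start, and were called in 1 and 3 libraries. NME4 and CRH were just outside, each at 1000 bp, in 2 and 4 libraries. ZNF10, the source of the KRAB domain in common silencing constructs, held 1 region, at its promoter and in all 4 libraries, and none in a coding exon.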

How the data were processed

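ATAC-seq peak lists of 4 sgControl HUDEP-2 libraries (2 PBS, 2 SCF) were analysed. The deposited lists give, per peak, a fold enrichment (ratio of the summit pileup to local background), a p-value and a q-value as -log10, and a browser score, which was not used. The authors ran the ENCODE ATAC-seq pipeline on paired-end reads and called each library alone. The labels name Bowtie2 and SAMtools. Caller settings are not given in the sources used here. The labels and methods name hg38, but the file headers and series text name hg19, so coordinates were read as GRCh37 and annotated with GENCODE release 44. The replicate numbers inside the peak names differ from those in the labels, which were used.

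The rule, lists and members were chosen with earlier results of these data known. Fold enrichment was converted to a percentile rank within each list. This step puts lists of unlike depth on a common scale but does not remove differences of sensitivity. A rank also depends on how many weak peaks a list holds. Regions were classed by summit as promoter (within 1 kb of a start), coding exon, untranslated or non-coding exon, distal intronic or intergenic. Position was taken in the canonical transcript where it held the summit, otherwise in that with the longest CDS. Summit pileups were recovered as whole numbers from the fold and the Poisson p (within 0.0001 of the deposited value for 100% of those recoverable), after a test on simulated data. Read totals were not in the lists, so intervals cover counting error of regions only. Libraries were compared by two-sided exact permutation, and classes by exact sign-flip over libraries. The methods call the 2 libraries of a group biological duplicates. Named genes were the 10 highest regions called in all 4 libraries, the 6 largest gains and losses, the 6 highest SCF-only and PBS-only regions, genes with 3 regions, list genes, the regions nearest the limit and ZNF10. Alternatives were a stricter q, ranking by -log10 p, equal peak numbers, other overlaps, limits, start sites, gaps and word windows, the replicate block and leaving out each library. Some genes are not reported here. Python 3.11.15, NumPy 2.4.6, SciPy 1.17.1, pandas 2.3.3 and pysam 0.24.0 were used.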

Additional observations from a re-analysis of the deposited data

How the results depend on the processing

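Of 140 alternative values, 102 stayed on their side, 34 moved and 4 reversed; the cause was not tested where none is given. With -log10 q of at least 5, 336 regions remained, 44.9% were called in all libraries, 34.5% lay in the last coding exon, SCF-only regions numbered 2 and gains 4, and the SCF minus PBS share reversed to -0.0457 points. Ranked by -log10 p, losses numbered 7 and coding minus intronic rank reversed to 3.62. The size of the set and the last-exon share varied with the start-site rule. With protein-coding starts only there were 740 regions, 25.8% of them in the last coding exon. Over 500 bp from starts there were 649 (26.2%), and over 2 kb 364 (29.4%). The matching shares of coding bases are not given. SCF-only regions numbered 16 with protein-coding starts only and 17 over 500 bp from starts, where gains were 14; PBS-only regions numbered 5 over 2 kb from starts. A gap of 5 points gave 14 gains and 21 losses, and 20 points gave 1 and 2. For the counts of calls in this section no share over all regions is given, so they are not read as a result about coding exons. The AP-1 difference reversed to -0.218 points within 250 bp.

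Leaving out 1 library gave SCF-only counts of 24 to 64, PBS-only 23 to 74, gains 15 to 33, losses 24 to 34, shares called in all 43.2% to 44.4%, and a share difference of -0.0227 (without PBS replicate 1, reversed) to 0.0515 points; with 3 libraries the rules are easier to meet. Pairing by replicate number (the replicate block) left the differences at 0.0118, -2.81 and 0.721 (exact permutation p = 1, 0.5 and 0.5, the smallest possible with 2 pairs being 0.5). With 2 pairs it could not be shown that numbers pair the samples. Calls kept under the stricter q, equal peak numbers, 100 bp overlap and -log10 p ranking were 3 of 8 gains (USP20, CRYBG1, DLL3), 3 of 11 losses (PROB1, DLL3, ATG9B), 1 of 9 SCF-only (CACNA1I) and 4 of 10 PBS-only (SLC38A11, NEK6, EEF1AKMT4-ECE2, MFHAS1). Calls on 6 to 20 fragments are limited by depth.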
